A study of Equus caballus with 4 samples.

Results

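Notch genes were examined on horse arrays that compared equine satellite cells treated with gamma-oryzanol (GO) with control cells. The genes were the receptors *NOTCH1*, *NOTCH2* and *NOTCH3*, the ligands *DLL1*, *JAG1* and *JAG2*, the nuclear mediator *RBPJ* and the target genes *HES1*, *HEY1* and *HEYL*. Probes were taken when the gene name given by the array equalled 1 of these 10 symbols, regardless of case. This rule found 13 of the 43603 probes, for 7 of the 10 genes. No probe carried the name *NOTCH1*, *NOTCH3* or *JAG2*.

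Satellite cells are the stem cells of skeletal muscle, and GO is a mixture of ferulic acid esters of plant sterols from rice bran oil. Primary cultures from the semitendinosus muscle of young colts were allowed to differentiate. On day 3 of differentiation, 1 group had been exposed to 0.125 μM GO for 24 h. Control cells received the solvent alone, and the same DMSO dose (0.04 μl/ml) was present in both groups. RNA of GO-treated cells (Cy5) and of control cells (Cy3) was hybridized together on each of 4 arrays of 1 slide. Cy5 always marked GO, so that what the dye does to a spot and what GO does cannot be told apart. The labels call the arrays biological replicates 1 to 4 but do not say whether these were horses or separate cultures of 1 selected line. The methods of the study say that the best-scoring line was taken forward, but not what the replicates were. The title of each array numbers its control from 1 to 4, whereas every description numbers it 1, so the control channels may share 1 control sample, and p-values measure the spread between these arrays, which may be technical. With 4 arrays, the precision of each mean is limited.

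Notch receptors are cut when a ligand on a neighboring cell binds them, and the released intracellular part enters the nucleus, where it joins RBPJ and switches on target genes of the HES and HEY families. In muscle, Notch signaling is known to keep satellite cells quiescent and to hold back differentiation, and it declines when myoblasts fuse. DLL1 is a ligand that myogenic cells themselves present.

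The signal of a spot is its processed intensity in arbitrary units, after subtraction of background and correction of dye bias, and since probes bind differently, levels of different genes are not on a common scale. The log2 ratio is that of the GO signal over the control signal of the same spot, so that a negative value means less signal in GO-treated cells. Tests were limited to the 26831 probes for which the same channel, GO or control, stood well above background on each of the 4 arrays. A change was counted where the adjusted p (limma, Benjamini-Hochberg) did not exceed 0.05 and the fold change reached 1.3, which is 0.38 on the log2 scale. In the plot of all probes, each gene is shown with its value on every array.

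**Figure D1:**
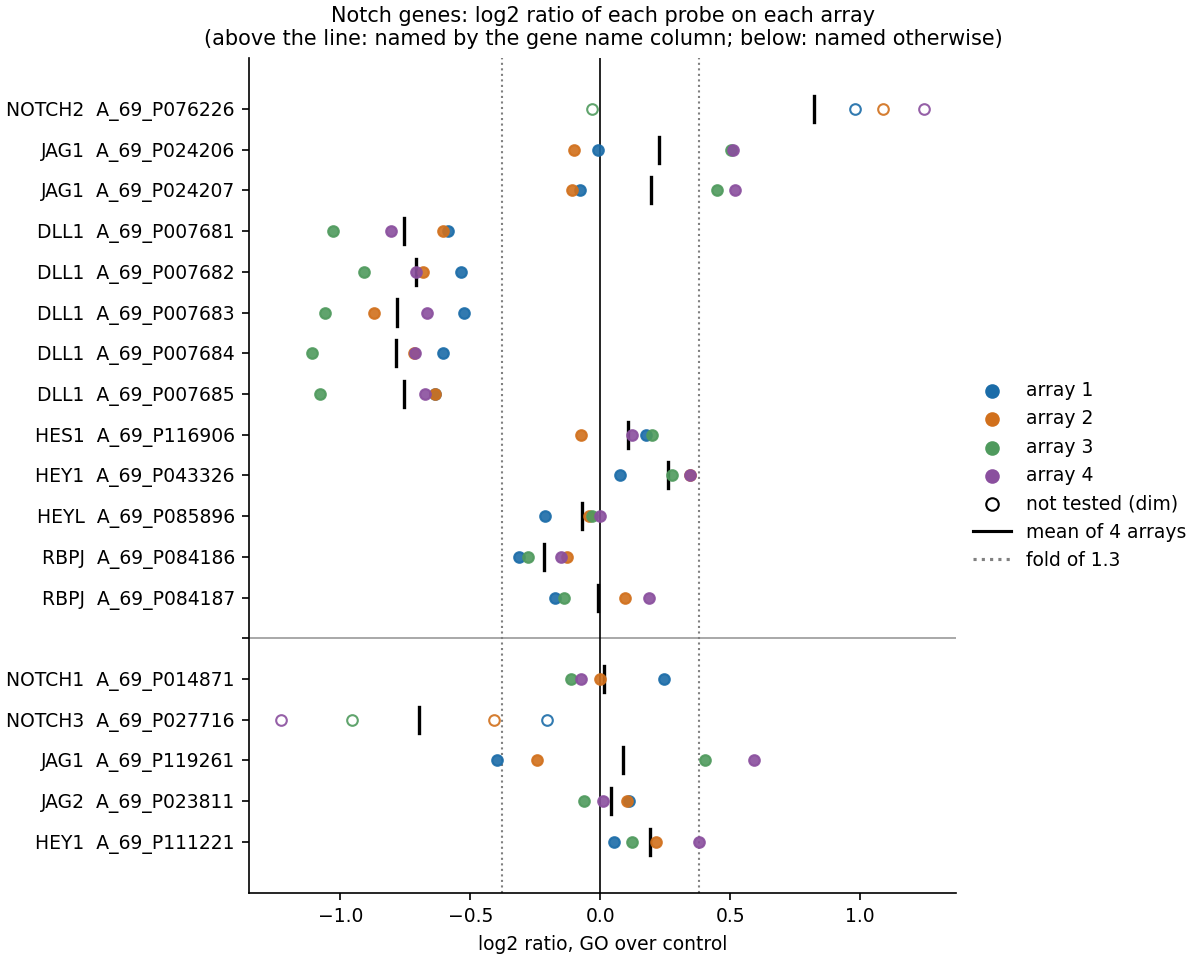
Log2 ratio of GO over control (x axis) for each probe of a Notch gene (y axis), with 1 point per array, a black bar at the mean of 4 arrays and dotted lines at a fold of 1.3. The 5 *DLL1* probes lie below -0.5 on every array, and the *JAG1* probes have arrays 1 and 2 below 0 and arrays 3 and 4 between 0.40 and 0.59.

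The sequences of 4 probes are shown because the change of *DLL1* and the values of *HES1* and *HEYL* rest on them. For *DLL1* the first and the last of 5 overlapping probes are given, and capitals mark the 56 bases that all 5 share. For *HEYL* capitals mark the last triplet, which reads as a stop codon after a frame that is open through the rest of the probe. Each is written 5′ to 3′ as on the array.
DLL1, A_69_P007685: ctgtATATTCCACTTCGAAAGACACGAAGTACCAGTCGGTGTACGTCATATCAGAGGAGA
DLL1, A_69_P007681: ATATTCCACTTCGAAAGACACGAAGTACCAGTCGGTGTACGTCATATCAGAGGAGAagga
HES1, A_69_P116906: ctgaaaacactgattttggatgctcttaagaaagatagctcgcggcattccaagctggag
HEYL, A_69_P085896: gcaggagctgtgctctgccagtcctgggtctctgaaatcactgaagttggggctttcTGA
The files place the *DLL1* probes on the plus strand of chromosome 31 of the EquCab1 build, from 504075 to 504138, each shifted by 1 base against the next. They are repeated readings of 1 site and not independent evidence. The *HES1* probe lies on chromosome 19, from 27046771 to 27047079, and its 60 bases skip 249 bases of the chromosome, so it bridges a gap in the genomic sequence. The *HEYL* probe lies on the plus strand of chromosome 2 (16781746 to 16781805), without such a gap.

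Of the 6 members with a tested probe, 1 changed, *DLL1*, which was lower in GO-treated cells. Over all genes tested with the brightest probe of each, 824 of 9495 changed (8.68%), and 510 (5.37%) were lower. Without array 2 or array 3 the count for all genes was 527 and 504, and 1 member changed in each case. The median log2 ratio of the 6 members was 0.05, beside 0.00 for all genes, and 3 of them had a mean below 0 and 3 above it. Among single probes, 5 of the 12 tested passed, all 5 of them the overlapping *DLL1* probes, beside 8.94% of all probes (5.61% lower and 3.33% higher).

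For the receptors the arrays gave little. NOTCH2 is a receptor that satellite cells carry, and its probe (A_69_P076226, chromosome 5, 34077728 to 34077787) stood well above background on 2 arrays for GO and on 1 for control, so it was not tested. Its signal was 17.7 to 25.4 in GO-treated cells and 8.44 to 18.1 in control cells. The log2 ratios were 0.98, 1.09, -0.03 and 1.25, high on arrays 1, 2 and 4 and near 0 on array 3. Over the local background, the raw spot reached 1.48 to 2.55 times for GO and 1.79 to 2.48 times for control, and no direction is read from it.

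For *NOTCH1* and *NOTCH3* a probe was found by the gene description in the files, after the values had been seen, since their gene name is a transcript number. The probe described as notch 1 (A_69_P014871, chromosome 25) had a signal of 271, 328, 200 and 218 in GO-treated cells and 229, 327, 217 and 230 in control cells. Its log2 ratios of 0.25, 0.00, -0.11 and -0.07 lay on both sides of 0. The mean was 0.02 ± 0.16 (SD, n = 4), with a 95% confidence interval from -0.17 to 0.20 and an adjusted p of 0.91. The probe described as notch 3 (A_69_P027716) stood well above background on 2 arrays for GO and on 3 for control and was not tested. Its log2 ratios were -0.21, -0.41, -0.96 and -1.23, at signals of 7.07 to 35.4 in GO-treated cells and 16.6 to 40.8 in control cells. The raw spot reached 1.48 to 2.77 times the local background for GO, and no direction is read from this probe either.

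Among the ligands, *DLL1* encodes a membrane protein of the Delta family that activates receptors on adjacent cells. Its brightest probe (A_69_P007681) had a signal of 111, 118, 106 and 101 in GO-treated cells on arrays 1 to 4. In control cells the signal was 167, 180, 216 and 176. The highest GO value lay below the lowest control value, but how many of all genes tested show this was not counted. The log2 ratios were -0.58, -0.61, -1.03 and -0.80, with array 3 the lowest. The GO channel stayed within a narrow band, and array 3 stood out through its control signal. The mean log2 ratio was -0.76 ± 0.21 (SD, n = 4; 95% confidence interval -0.97 to -0.55), which is 1.69-fold lower in GO-treated cells, at an adjusted p of 0.00511. Among all genes tested, 1.39% had a log2 ratio of this size or more in either direction.

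The other *DLL1* probes gave similar values. Over the 5 probes the log2 ratio ran from -0.63 to -0.53 on array 1, from -0.87 to -0.61 on array 2, from -1.11 to -0.91 on array 3 and from -0.80 to -0.67 on array 4. Array 3 was the lowest for each of the 5 probes. The probes differed by 0.11 to 0.26 within an array, whereas their means differed by 0.46 between arrays. The mean of a probe lay between -0.79 and -0.71, with an adjusted p between 0.00387 and 0.00560. In the plot of the signals, the control points of *DLL1* stand above the GO points on each array.

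**Figure D2:**
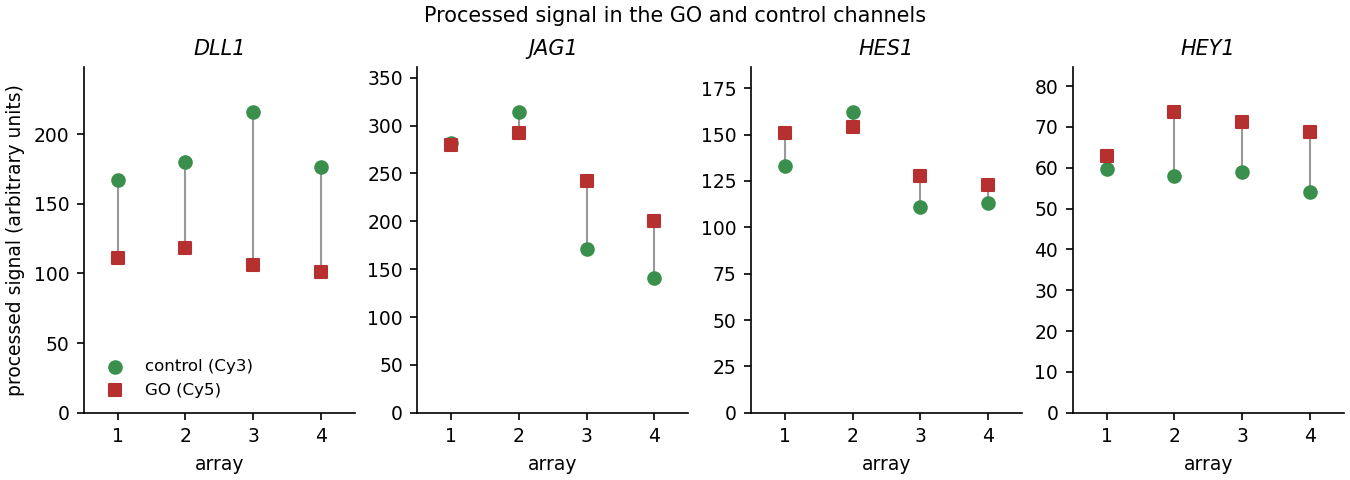
Processed signal in arbitrary units (y axis, starting at 0, with a scale of its own for each gene) on arrays 1 to 4 (x axis) in control cells (green circles) and GO-treated cells (red squares), brightest probe by gene name, with a grey line joining the channels of an array. *DLL1* was 101 to 118 in GO-treated cells and 167 to 216 in control cells, whereas *JAG1* differed between the channels on arrays 3 and 4.

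The *DLL1* call did not hold under every way of processing. It was lost when limma gave way to a plain one-sample test (adjusted p = 0.0812) and when dim probes were tested too (adjusted p = 0.0513), while its log2 ratio stayed at -0.76 in both. With dim probes included, 1 of the 5 *DLL1* probes (A_69_P007682) still passed (-0.71; adjusted p = 0.0407). The adjusted p of the brightest probe over all alternatives ran from 0.00289 to 0.0812. With normexp background correction the log2 ratio was -0.50. The sign was negative under all 12 alternatives. In RNA from whole cultures, fewer cells of a type and less RNA per cell cannot be told apart.

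Most myogenic markers were lower as well. Of 9 symbols listed for myogenic cells 6 had a probe, all 6 were tested, and 5 were lower in GO-treated cells: *MYF5*, *MYOG*, *DES*, *MYH3* and *MYH8* (5.37% of all genes were lower). *MYOD1* did not pass, with 0.11 on array 1 and values below 0 on the others (-0.36 ± 0.33; adjusted p = 0.0905). The median log2 ratio of the 6 was -0.72, between -1.08 and -0.36. The summed signal of the list was 64500, 69370, 61060 and 53910 in GO-treated cells and 94470, 118900, 123200 and 91440 in control cells. These sums rest mostly on the probe with the highest signal, that of *MYH3* (47416 of 64500 for GO on array 1). *PAX7* and *CDH15* had no probe of that name. The part of these genes in the value of *DLL1* was not tested.

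Markers of other cells gave less. For fibroblasts 5 of 6 genes were tested and 1 changed in either direction, beside 8.68% of all genes. This gene, *PDGFRA*, rose (0.87 ± 0.48; adjusted p = 0.0198). *COL1A2*, *DCN*, *THY1* and *LUM* had means between -0.05 and 0.08 and did not pass. Their summed signal was 237700, 258800, 276700 and 195600 in GO-treated cells and 248900, 252900, 302300 and 184600 in control cells, most of it from *COL1A2* (158471 of 237700 for GO on array 1). For mural cells 4 of 7 genes were tested, for leukocytes 2 of 6, and 0 of these passed (limma), with 0 and 1 of them at an unadjusted p under 0.05 (34.8% of all genes). The 6 endothelial genes with a probe, *PECAM1*, *CDH5*, *KDR*, *VWF*, *TEK* and *ESAM*, were all below the filter on dim probes. Their part in the Notch values was not tested either.

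By the distance between their log2 ratios on the 4 arrays, the genes closest to *DLL1* among all genes tested were *MYH7*, *BCHE* and *SYTL2*. *MYH7* encodes the slow myosin heavy chain, and its mean log2 ratio was -0.73 (distance 0.11; adjusted p = 0.00484). *BCHE*, the gene of butyrylcholinesterase, had a mean of -0.78 (distance 0.16; adjusted p = 0.00321). *SYTL2*, a gene of vesicle transport, had a mean of -0.78 (distance 0.17; adjusted p = 0.00722). Since they were picked by this distance, their values below 0 on 4 of 4 arrays and their adjusted p follow from the choice. This likeness describes 4 arrays only.

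JAG1 is a ligand of the Jagged family. Its brightest probe by gene name (A_69_P024206, chromosome 22, 13191051 to 13191110) had a signal of 280, 293, 243 and 200 in GO-treated cells. The control signal was 282, 314, 171 and 141. The log2 ratios were -0.01, -0.10, 0.50 and 0.51, so that arrays 1 and 2 lay at or just below 0 and arrays 3 and 4 well above it. The other probe by gene name (A_69_P024207), which overlaps it by 20 bases, gave -0.08, -0.11, 0.45 and 0.52. With a mean of 0.23 ± 0.33 (SD, n = 4; 95% confidence interval -0.07 to 0.52) and an adjusted p of 0.233, *JAG1* did not pass. Without array 3 or array 4 the mean was 0.13 in each case. Its SD was reached or exceeded by 8.24% of the genes tested, whose median SD was 0.15.

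The pattern was seen at a further site of *JAG1*. A probe described as jagged 1 under an accession (A_69_P119261), picked after the values had been seen, lies 1479 bases beyond the others and shares no base with them. Its log2 ratios were -0.40, -0.24, 0.40 and 0.59, again below 0 on arrays 1 and 2 and above it on arrays 3 and 4. The signal was 1297, 1135, 1204 and 1259 in GO-treated cells. In control cells it was 1706, 1343, 910 and 836, so that the arrays differed mainly in the control channel. Relative to the median of the tested probes in the same channel and array, the log2 GO signal was 1.51, 1.44, 1.49 and 1.72, and the log2 control signal fell from 1.90 and 1.68 on arrays 1 and 2 to 1.08 on array 3, with array 4 close to array 3. The mean log2 ratio of this probe was 0.09 ± 0.48 (adjusted p = 0.747).

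JAG2, the other Jagged ligand, was represented by a probe named in the description alone (A_69_P023811, chromosome 24). Its log2 ratios were 0.11, 0.10, -0.06 and 0.01, all close to 0. The signal was 38.4 to 60.4 in GO-treated cells and 35.6 to 56.2 in control cells, and the mean of 0.04 ± 0.08 had a confidence interval from -0.10 to 0.18 (adjusted p = 0.662).

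RBPJ is the DNA-binding protein through which all Notch receptors act on their targets. Its 2 probes on the minus strand of chromosome 3 lie 15 bases apart, between 92097182 and 92097316. The brighter (A_69_P084187) had signals of 3893, 3518, 5152 and 4531 in GO-treated cells and 4390, 3292, 5680 and 3981 in control cells. Its log2 ratios of -0.17, 0.10, -0.14 and 0.19 were below 0 on arrays 1 and 3 and above it on arrays 2 and 4. The other (A_69_P084186) gave -0.31, -0.13, -0.28 and -0.15, below 0 on every array. The probes thus disagreed: the brighter had a mean of -0.01 ± 0.18 (adjusted p = 0.956) and the other -0.22 ± 0.09 (adjusted p = 0.0537). Neither passed. The sign of the brighter probe turned under 4 of 12 alternatives, among them leaving out array 1 (0.05) or array 3 (0.04).

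The target genes encode transcriptional repressors. *HES1* is among the first genes that an active receptor switches on, and its probe had a signal of 151, 154, 128 and 123 in GO-treated cells and 133, 162, 111 and 113 in control cells. The log2 ratios were 0.18, -0.07, 0.20 and 0.12, above 0 on 3 of 4 arrays. The mean was 0.11 ± 0.12 (SD, n = 4; 95% confidence interval -0.06 to 0.27) at an adjusted p of 0.303, so no change of *HES1* was counted. The mean was 0.17 without array 2 and 0.04 with normexp or with median centring.

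HEY1 is a target that answers to Notch in muscle progenitors. Its probe had a signal of 62.9, 73.6, 71.3 and 68.8 in GO-treated cells and 59.7, 57.9, 58.8 and 54.2 in control cells. The log2 ratios of 0.08, 0.35, 0.28 and 0.35 were all above 0, array 1 being the lowest. The mean of 0.26 ± 0.13 (95% confidence interval 0.10 to 0.42) is 1.20-fold higher, below the fold threshold, at an adjusted p of 0.0448. *HEY1* therefore passed the adjusted p but was not counted as changed. The adjusted p exceeded 0.05 under 8 of 12 alternatives, among them leaving out array 2 (0.167), array 3 (0.139) or array 4 (0.129), and with normexp the log2 ratio was 0.10. A probe that RefSeq assigns to *HEY1* by its accession (A_69_P111221), outside the naming rule and picked after the values had been seen, gave 0.05, 0.22, 0.12 and 0.38, also above 0 on all 4 arrays, with a mean of 0.19 ± 0.14 (adjusted p = 0.106).

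HEYL is a related repressor that Notch raises in muscle cells. Its probe was dim, with a signal of 25.6, 29.3, 26.7 and 25.95 in GO-treated cells and 29.7, 30.2, 27.3 and 25.97 in control cells. It was tested through the control channel, well above background on all 4 arrays, whereas the GO channel was so on 3. The log2 ratios were -0.21, -0.04, -0.03 and 0.00, at or below 0, with array 1 apart from the others. The mean of -0.07 ± 0.10 (95% confidence interval -0.22 to 0.08) had an adjusted p of 0.453, and with median centring in place of lowess it was -0.22 (adjusted p = 0.0482), whereas with normexp it was 0.00 (adjusted p = 0.950) and without array 1 -0.02 (adjusted p = 0.781).

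**Figure D3:**
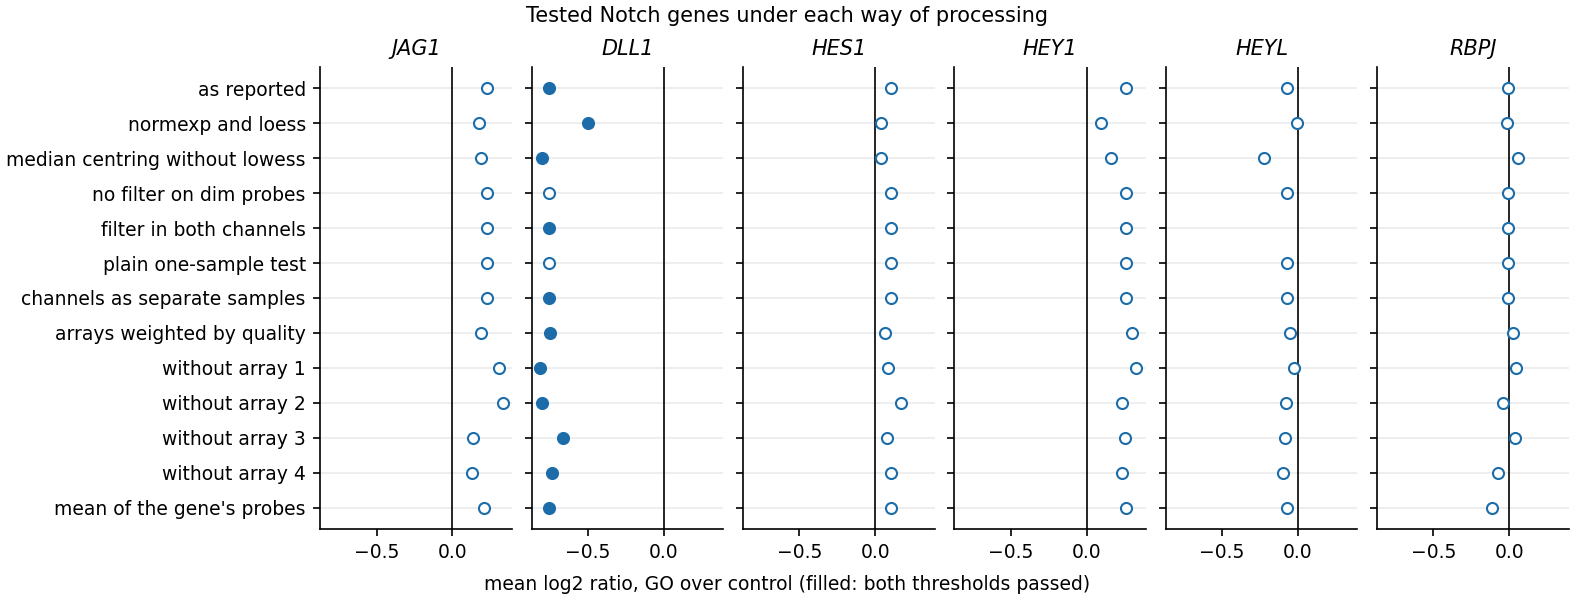
Mean log2 ratio of GO over control (x axis) of the 6 tested genes under each way of processing (y axis), with filled circles where both thresholds were passed. *DLL1* was negative throughout, from -0.81 to -0.50, and open in the rows of the plain test and of no filter on dim probes, whereas the other genes have open circles only.

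The other genes of the pathway were taken from 7 lists by role. Of 59 symbols 47 had a probe and 40 were tested, of which 1 was higher and 3 were lower in GO-treated cells. This is 10% of those tested, beside 8.68% of all genes. The median log2 ratio of the 40 was -0.03, beside 0.00 for all genes, and the ratio was below 0 in 24 and above 0 in 16. An unadjusted p under 0.05 was found for 15 of the 40, beside 34.8% of all genes tested. Without array 2, 2 of the 40 passed. *DTX3L*, among the lower genes, entered the test through its control channel alone. With both channels required to be well above background 3 of 35 passed, beside 689 of 8614 genes in all.

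Receptors and ligands beyond the members were mostly dim. Of *NOTCH4*, *DLL4*, *DLK1* and *DLK2*, only *DLK2* was tested, with log2 ratios of -0.21, -0.35, 0.50 and -0.23 and a mean of -0.07 ± 0.38 (adjusted p = 0.748). Array 3 stood opposite to the others, and GO signal stood well above background on 2 arrays. Without array 2 the mean was 0.02 and without array 3 -0.26.

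Sugars added to the receptor change how it answers to ligands. Of the 4 tested genes of this group, 1 changed in either direction, beside 8.68% of all genes. It was *POGLUT1*, an O-glucosyltransferase that acts on Notch, and it rose. It was also the only 1 of the 4 with an unadjusted p under 0.05, beside 34.8% of all genes. Its brightest probe had log2 ratios of 0.35, 0.31, 0.61 and 0.49, above 0 on all arrays. The mean was 0.44 ± 0.14 (SD, n = 4; adjusted p = 0.0112), or 1.36-fold higher. Its other tested probe had a mean of 0.31 and did not pass the fold threshold. With normexp the brightest probe had 0.36, just under that threshold. The mean of both probes, taken without normexp, was 0.38, also just under it. The 4 genes of the group had means between 0.06 and 0.44, with a median of 0.19, beside 0.00 for all genes. Only *POGLUT1* passed.

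Of the 9 genes for receptor cleavage, 2 fell (5.37% of all genes), and the same 2 had an unadjusted p under 0.05 (34.8% of all genes). *ADAM17*, a metalloprotease that can shed receptor and ligand ectodomains, had log2 ratios of -0.65, -0.30, -0.24 and -0.92 in its brightest probe, lowest on array 4. The mean was -0.53 ± 0.32 (SD, n = 4; adjusted p = 0.0310). Of its 3 tested probes this was the only one called, and the others had means of -0.40 and 0.06, so the probes disagreed. The mean over its probes was -0.29, past neither threshold. Leaving out array 1 (-0.49; adjusted p = 0.0875), array 2 (-0.60; 0.0658) or array 4 (-0.40; 0.0563) ended the call.

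*PSEN2*, a catalytic subunit of gamma-secretase, had log2 ratios of -0.12, -0.45, -0.53 and -0.65, below 0 on all arrays and closest to 0 on array 1. The mean was -0.43 ± 0.23 (SD, n = 4; adjusted p = 0.0262). The call ended without array 2 (-0.43; adjusted p = 0.0958), array 3 (-0.40; 0.0935) or array 4 (-0.36; 0.0672). *NCSTN*, *APH1A*, *APH1B* and *PSENEN*, which encode other subunits of that enzyme, had means between -0.09 and 0.10 and did not pass, nor did *ADAM10*, the main protease of ligand-activated receptors (-0.04 ± 0.19).

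Among ubiquitin ligases and endocytic adaptors, 1 of 8 passed, beside 8.68% of all genes. An unadjusted p under 0.05 was found for 6 of the 8 (34.8% of all genes). Of the 8 means, 4 lay below 0 and 4 above. *DTX3L*, a Deltex-family ubiquitin ligase, had a signal of 10.9, 12.3, 14.3 and 10.66 in GO-treated cells and 47.4, 27.9, 91.2 and 26.5 in control cells. Its GO signal was well above background on 0 of 4 arrays, so that the filter passed it by its control signal only, the test rests on the same difference, and the ratio is a bound. The signal was at least 2.18-fold lower in GO-treated cells, a value without a test of its own, when the dim channel was set no lower than the lowest signal counted as well above background on each array, and such a bound is open to dye bias. The log2 ratios as measured were -2.12, -1.18, -2.67 and -1.32, and the adjusted p of 0.00676 belongs to these. With normexp the measured value was -0.36 and did not pass. That is smaller in size than the bound (1.13 on the log2 scale), so the bound holds for the processed signals only. *MIB1*, the ligase that activates Delta and Jagged ligands by endocytosis, had log2 ratios of -0.20, -0.16, -0.08 and -0.56, lowest on array 4. Its mean was -0.25 ± 0.21, and it did not pass. *MIB2* (0.24 ± 0.16; adjusted p = 0.0746) and *DTX3* (0.23 ± 0.22; adjusted p = 0.120) were above 0 on 4 of 4 arrays and did not pass either. For *DTX3* the log2 ratios were 0.53, 0.03, 0.11 and 0.26, highest on array 1 and near 0 on array 2.

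In the nucleus, 0 of 6 tested coactivator genes and 0 of 10 corepressor genes passed in limma, beside 8.68% of all genes. An unadjusted p under 0.05 was found for 2 and 4 of them (34.8% of all genes). A plain one-sample test passed 0 of the 40 pathway genes. The largest mean was that of *MAML1* among coactivators (0.23 ± 0.20; adjusted p = 0.109) and of *TLE4* among corepressors (-0.32 ± 0.30; adjusted p = 0.0997). With normexp *MAML1* was 0.08, and without array 1 it was 0.14. *TLE4* had GO signal well above background on 1 array and entered the test by its control signal, so that filter and test rest on the same difference. It was past both thresholds without array 4 (-0.44; adjusted p = 0.0418), but was -0.10 with normexp, and its other tested probe had -0.14 (adjusted p = 0.273). *HDAC2* (-0.31 ± 0.16; adjusted p = 0.0377) and *SPEN* (-0.26 ± 0.12; adjusted p = 0.0447), named after their values were seen, were below 0 on 4 of 4 arrays and passed the adjusted p but not the fold threshold. *TLE1* lay in the other direction, with 0.05, 0.29, 0.38 and 0.33, above 0 on 4 of 4 arrays (0.26 ± 0.15; adjusted p = 0.0517). Of further targets *HES7* and *HEY2* were tested and 0 passed, with 0 at an unadjusted p under 0.05. The 5 *HEY2* probes had means between -0.19 and -0.15, and the brightest gave -0.29, -0.09, -0.24 and 0.00 (adjusted p = 0.163).

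**Figure D4:**
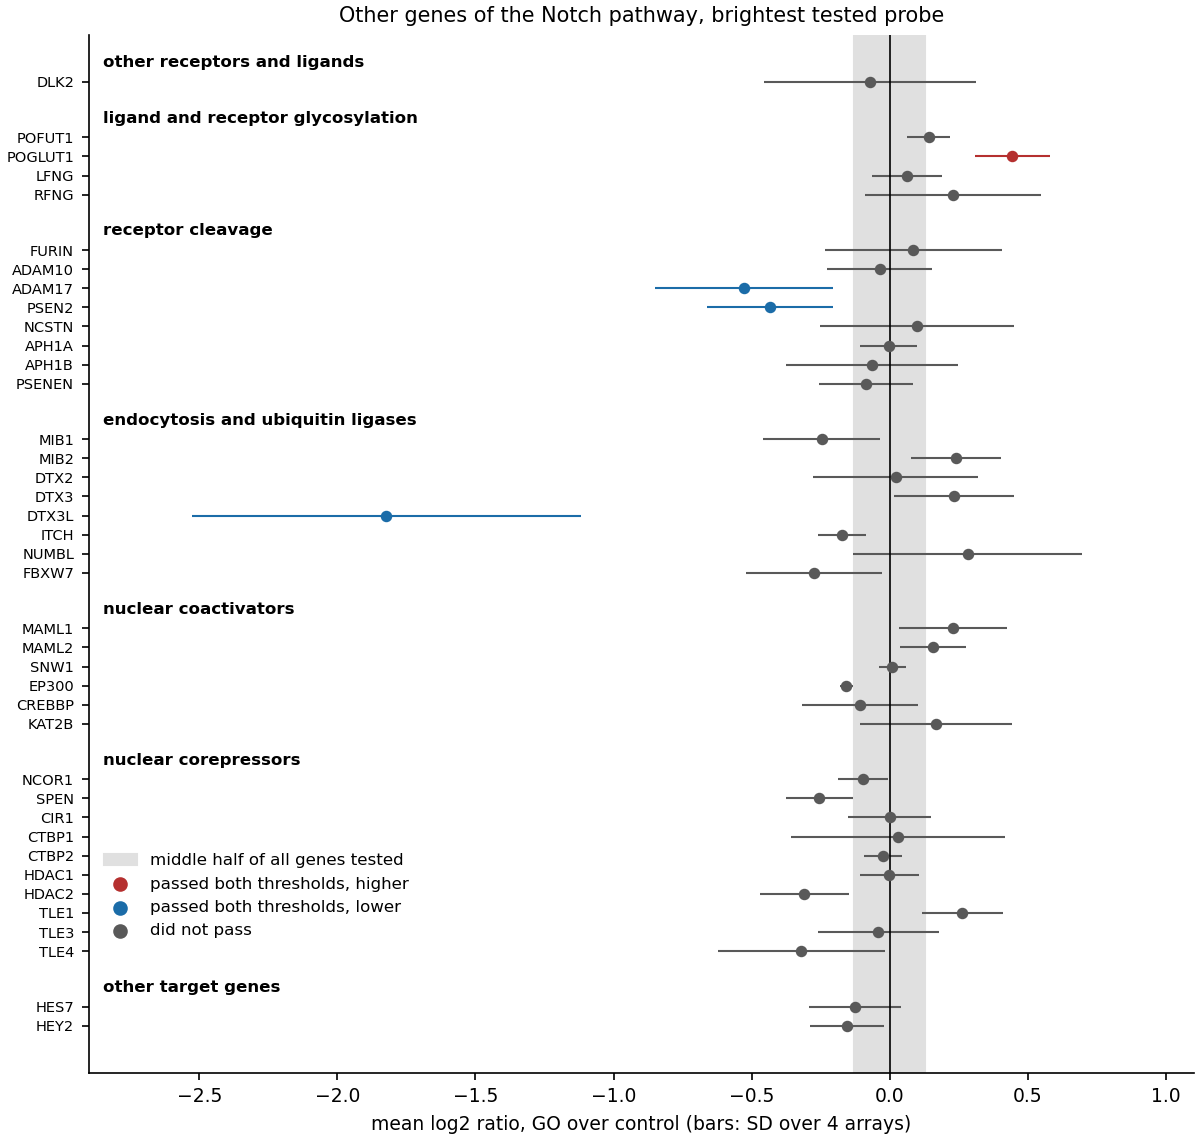
Mean log2 ratio of GO over control (x axis, bars for the SD over 4 arrays) of tested genes of the pathway lists (y axis, by role; 1 gene is not shown), brightest tested probe, with the range between the quartiles of all genes tested in grey. *POGLUT1* is the gene called higher, and *ADAM17*, *PSEN2* and *DTX3L* are those called lower. The point of *DTX3L* is the measured value, of which 2.18-fold is the bound for the processed signals only.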

How the data were processed

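Gene expression was measured on 4 two-color horse arrays with GO-treated cells in Cy5 and control cells in Cy3. The authors ran Feature Extraction, whose version is 10.10.1.1 per the file headers, whereas the methods of the study name a different version. For every spot the authors give intensity values of each channel (raw mean, local background, background-subtracted and processed). They also deposited a log10 ratio, Cy5 over Cy3, formed from the processed signals after linear and lowess dye normalization. The authors' table of the whole series was not used. Each array held 45220 spots. Between 57.4 and 68.9% of noncontrol spots were well above background in a channel, and the median spot was 2.86 to 4.38 times its local background. Between 10 and 19 outlier spots per array and 1417 control spots were left out, and the spots of a probe were averaged. The ratios were turned into log2 and tested against 0, two-sided, with limma (version 3.58.1, lmFit and eBayes) in R (version 4.3.3), on 26831 of 43603 probes, with Benjamini-Hochberg adjustment. The test was tested on simulated data, drawn independently per probe with the spread fitted here. Correlation between probes and dye bias were not part of it. The methods of the study give the thresholds but do not name the test. At these thresholds the study reported far fewer changed transcripts, and its list of changed genes holds neither *DLL1* nor *MYOG*. It found *MYOG* lower by qPCR and short of the fold threshold on the arrays. The reason for the difference in counts was not tested. Where a gene had several probes, the brightest tested probe counted.

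Gene names are those of the files for 24962 probes. A further 1684 were named by gene number and 387 by accession through RefSeq (names only), but members were taken by the files' gene name alone. Named genes were all members, every called pathway gene, the pathway gene with the largest mean of each list, the 3 genes closest to the called member and the cell type markers by list, single markers being named after their values were seen. *NCSTN*, *APH1A*, *APH1B*, *PSENEN*, *ADAM10*, *MIB1*, *MIB2*, *DTX3*, *HDAC2*, *SPEN*, *TLE1*, *HES7* and the untested *NOTCH4*, *DLL4* and *DLK1* fall outside this rule and were named after their values were seen. The counts include 1 pathway gene that is not reported here by name, and 1 probe sequence is not reported here. The members and lists were chosen with earlier results of these data known. The slide held all arrays and was not tested as a batch. The alternatives were normexp (offset 50) with loess, median centring without lowess, no filter on dim probes, a filter in both channels, a plain one-sample test, channels as separate samples, array weights, leaving out each array, the adjusted p alone and the mean of a gene's probes. Figures were drawn with matplotlib (version 3.10.9).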

Additional observations from a re-analysis of the deposited data

Results flagged for a closer look

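In 4 of 65 sets of 4 array values, 1 array lay far from the others relative to the whole range, and chance alone flags about 1 in 20 such sets. The log2 ratio of *DLL1* on probe A_69_P007685 was -0.63, -0.64, -1.08 and -0.67, with array 3 apart (a gap of 0.915 of the range). The GO signal of *DLL1* on probe A_69_P007683 was 108, 90.9, 92.7 and 90.6, with array 1 apart (0.867 of the range on the log2 scale). The control signal of the probe described as *NOTCH1* was 229, 327, 217 and 230, with array 2 apart (0.855). The log2 ratio of *DLK2* was -0.21, -0.35, 0.50 and -0.23, with array 3 apart (0.833).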

How the results depend on the processing

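As reported, 2399 probes, 824 genes, 1 of 6 Notch members and 4 of 40 other pathway genes changed. With normexp and loess these counts were 1297, 383, 1 and 2. With no filter on dim probes they were 908, 282, 0 and 0, over more tests, and with the plain one-sample test 147, 37, 0 and 0. Without the pairing of the channels by array (no replicate block) they were 919, 247, 1 and 2. The adjusted p alone passed 4859 probes, 1641 genes and 2 members, the added member being *HEY1*. With the mean of a gene's probes 2 pathway genes passed. Leaving out 1 array gave 1566 to 2430 probes, 504 to 809 genes, 1 member each time and 2 to 3 pathway genes. *RBPJ* turned from -0.01 to 0.0559 with median centring and to 0.0274 with array weights, and ran from -0.0728 to 0.0473 when 1 array was left out. *DLK2* then ran from -0.262 to 0.0189. The cause was not tested. *HEYL*, *DLK2*, *TLE4* and *DTX3L* give no value under the filter in both channels. *TLE4* passed under 3 of 11 alternatives. Calls were lost under 7 of 12 alternatives for *ADAM17*, 6 of 12 for *PSEN2*, 4 of 12 for *POGLUT1* and 3 of 11 for *DTX3L*. Signal over background limits the dim probes, among them those of *NOTCH2*, *NOTCH3*, *HEYL*, *DLK2*, *TLE4* and *DTX3L*, and 4 arrays of 1 dye orientation limit every value.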
